A study of Mus musculus with 35 samples.

Results

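Regulators of G protein signalling (RGS proteins) were examined as transcripts in Tregs (regulatory T cells), a CD4+ lineage that holds immune responses in check. The members were the rows of the deposited count table with the symbols Rgs1, Rgs2, Rgs3, Rgs10, Rgs14, Rgs16 and Rgs19, which are 7 of the 55011 gene rows, and all 7 passed the filter on low counts that kept 15910 genes. Each library was made from 1000 Tregs, sorted in 2 rounds for CD4 and CD25, out of visceral adipose tissue (VAT) or spleen of wild-type C57BL/6 male retired breeders over 35 weeks old, under a cycle with 12 h of light per day. The sampled Zeitgeber times (ZT, counted in hours from lights on) were 0, 4, 8, 12, 16 and 20, with 17 VAT libraries (3 per time, 2 at ZT20) and 18 spleen libraries (3 per time). A library's name gives its tissue, its time and its letter (A to D) from the labels. The sort did not use Foxp3, the lineage-defining transcription factor of Tregs, so other CD25+ CD4+ T cells could be included. Foxp3 was detected in all libraries. It averaged 711 ± 67.2 CPM over the 17 VAT libraries and 521 ± 56.0 CPM over the 18 spleen libraries (SD), where CPM are counts scaled to library size after TMM normalisation (trimmed mean of M values).

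When a receptor of the seven-helix kind binds its ligand, it loads a G protein alpha subunit with GTP, and the alpha and the beta-gamma subunits then signal until the GTP is hydrolysed. RGS proteins speed up that hydrolysis and so shorten the signal. In lymphocytes the chemokine and sphingosine phosphate receptors are among those they act on, and loss of RGS proteins such as Rgs1 and Rgs16 alters lymphocyte migration in mice. By sequence, Rgs1, Rgs2, Rgs3 and Rgs16 belong to the R4 subfamily, Rgs10 and Rgs14 to the R12 subfamily, and Rgs19 to the RZ subfamily.

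Gene positions are on mm10 (GRCm38), from GENCODE M21, and are counted from 1. Rgs2 (chromosome 1, 143999338 to 144004161, minus strand) and Rgs1 (chromosome 1, 144242296 to 144249242, minus strand) lie in a run of RGS genes that also holds Rgs13, Rgs21 and Rgs18. Rgs16 is on the plus strand of the same chromosome (153740349 to 153745468). Rgs3 is on chromosome 4 (62559847 to 62704001), Rgs10 on chromosome 7 (128373621 to 128418758), Rgs14 on chromosome 13 (55369732 to 55384687) and Rgs19 on chromosome 2 (181688419 to 181693977). The antisense genes Gm28513 and Gm11209 overlap Rgs16 and Rgs3, and Gm15503 overlaps Rgs10 on the same strand. The strand setting of the counting is not given in the sources used here, so reads in those overlaps cannot be told apart.

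The 250 bases before the RefSeq start (GRCm38.p6) are shown for the 3 members that differed most between the tissues, 5′ to 3′ on the strand of the gene. Capitals mark the core TGACGT of the cyclic AMP response element on either strand. The windows are chr1:144004150-144004399 for Rgs2, chr1:153740103-153740352 for Rgs16 and chr7:128418173-128418422 for Rgs10.
Rgs2: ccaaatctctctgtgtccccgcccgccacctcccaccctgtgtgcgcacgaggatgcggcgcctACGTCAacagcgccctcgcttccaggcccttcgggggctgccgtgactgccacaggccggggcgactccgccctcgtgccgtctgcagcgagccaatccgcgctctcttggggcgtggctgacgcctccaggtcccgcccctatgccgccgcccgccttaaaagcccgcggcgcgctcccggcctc
Rgs16: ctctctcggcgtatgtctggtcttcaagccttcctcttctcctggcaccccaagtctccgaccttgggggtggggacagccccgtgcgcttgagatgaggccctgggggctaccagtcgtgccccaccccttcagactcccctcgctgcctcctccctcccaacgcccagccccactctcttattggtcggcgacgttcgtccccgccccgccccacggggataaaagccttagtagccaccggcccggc
Rgs10: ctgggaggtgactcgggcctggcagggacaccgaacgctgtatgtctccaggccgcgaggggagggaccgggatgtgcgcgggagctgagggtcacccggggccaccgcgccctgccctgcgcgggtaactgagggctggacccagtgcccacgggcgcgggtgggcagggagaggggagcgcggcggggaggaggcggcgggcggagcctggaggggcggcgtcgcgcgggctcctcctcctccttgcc
RefSeq windows matched 5 of the 7 members (Rgs2, Rgs3, Rgs10, Rgs16 and Rgs19), with 8 windows in all. The Rgs2 window held 1 TGACGT, read as ACGTCA on the printed strand, from position -186 relative to the start, and no other member's window held one, against 6.47% of 32851 windows of the same length. None of the 8 windows held the full element TGACGTCA (1.55% of all windows), the AP-1 site TGANTCA (6.75%) or the clock E-box CACGTG (6.02%), each searched on both strands. TGACGTCA contains TGACGT, so these counts overlap. A match is a description of the letters and not a measured site.

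The first comparison set VAT against spleen Tregs, averaged over the 6 times. All 7 members differed, 3 higher and 4 lower in VAT, by edgeR's quasi-likelihood test with Benjamini-Hochberg adjustment over 15910 genes. That share has to be read against a background in which 62.2% of all genes tested differed (28.4% higher and 33.8% lower). The sizes were unequal: Rgs2 was 62-fold and Rgs16 4.25-fold higher in VAT by the ratio of means, Rgs10 was 3.58-fold higher in spleen, and the other 4 members differed by less than 2-fold. The median log2 fold change was -0.39 over the 7 members and -0.10 over all genes tested. The labels do not say whether replicates are separate animals, and the p-values therefore cover only library-to-library spread, which may be technical.

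**Figure D1:**
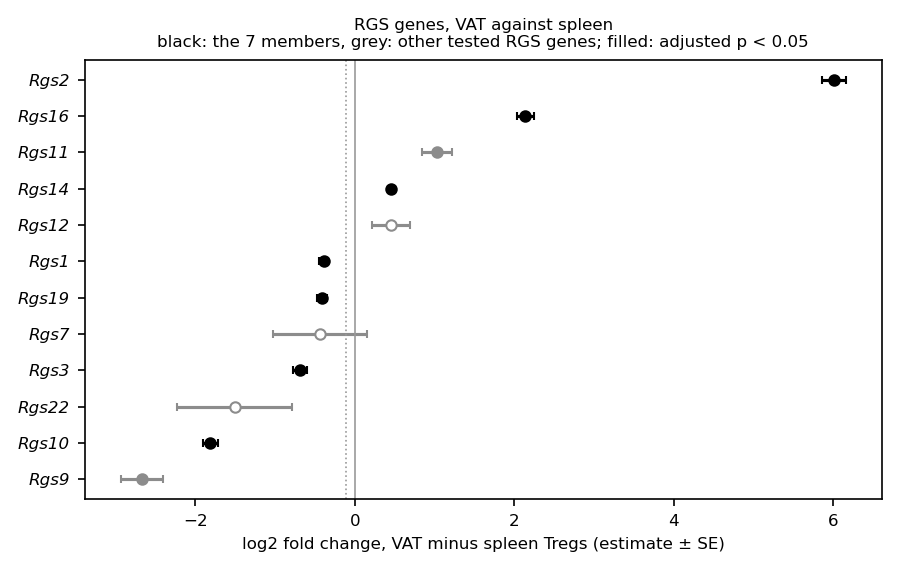
Log2 fold change of VAT minus spleen Tregs (horizontal axis, estimate ± SE from the edgeR fit over 35 libraries) for the 7 members in black and the 5 other RGS genes tested in grey, with filled points past an adjusted p of 0.05 and a dotted line at the median of all genes. Rgs2 lies at 6.01, apart from the other genes, and Rgs10 and Rgs9 lie lowest.

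Rgs2, which acts mainly on Gq alpha subunits and is known as a transcript induced by cyclic AMP and other stimuli, was the member with the largest difference. In VAT its level ran from 906 to 2173 CPM (median 1353, 17 libraries), and in spleen from 9.68 to 44.5 CPM (median 19.8, 18 libraries). Every VAT library lay above every spleen library, with a wide gap between them. The edgeR log2 fold change was 6.01 ± 0.15 (SE, adjusted p = 2e-22). The spleen values rested on 29 to 142 counts per library and those of VAT on 1832 to 7831. The log2 ratio of the group means ran from 5.38 at ZT12 to 6.57 at ZT0.

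Rgs16, an R4 member that limits chemokine-driven migration of activated lymphocytes in mice, followed. It ran from 95.2 to 206 CPM in VAT (median 173) and from 24.7 to 99.6 CPM in spleen (median 33.2). Of the 17 VAT libraries, 16 lay above the highest spleen library, ZT20 B. The exception was VAT ZT16 B, at 95.2 CPM. The edgeR log2 fold change was 2.14 ± 0.11 (adjusted p = 2.59e-18), and the level was higher in VAT at 6 of 6 times. The ZT20 log2 ratio of 1.31 was the smallest of the 6, the others lying between 2.19 and 2.49.

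Rgs1, which dampens chemokine receptor signalling and is abundant in tissue-resident lymphocytes, went the other way by a small margin. Its level ran from 268 to 534 CPM in VAT (median 408) and from 377 to 698 CPM in spleen (median 534). The tissues overlapped, and 7 of the 17 VAT libraries lay below the lowest spleen library. The edgeR log2 fold change was -0.39 ± 0.06 (adjusted p = 1.88e-07). It was lower in VAT at 5 times and higher at ZT0, where the VAT libraries held 534, 490 and 458 CPM and the spleen libraries 469, 414 and 397 CPM. Rgs1 and Rgs2 thus differed in direction although they lie near each other on chromosome 1. Rgs13, whose annotated span lies between theirs, had 10 counts over all VAT libraries and 7 over all spleen libraries.

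Rgs3, an R4 member with long and short protein forms, ran from 35.4 to 61.8 CPM in VAT (median 46.2) and from 58.4 to 105 CPM in spleen (median 78.7). It was lower in VAT at 6 of 6 times, and 14 of 17 VAT libraries lay below all spleen libraries. The edgeR log2 fold change was -0.69 ± 0.09 (adjusted p = 7.35e-09). The table counts reads per gene symbol, so the forms cannot be told apart.

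Rgs10 and Rgs14, both of the R12 subfamily, moved in opposite directions. Rgs10, a small protein acting on Gi alpha subunits, ran from 40.7 to 103 CPM in VAT (median 64.2) and from 182 to 359 CPM in spleen (median 227), with no overlap between the tissues. Its log2 fold change was -1.81 ± 0.10 (adjusted p = 1.4e-17, edgeR). Rgs14, a larger scaffold that also binds Ras proteins and inactive Gi alpha subunits, ran from 329 to 459 CPM in VAT (median 381) and from 216 to 316 CPM in spleen (median 273). Its libraries did not overlap either, although the difference was small, at 0.46 ± 0.05 (adjusted p = 9.72e-11, edgeR). Libraries of the tissues did not overlap for 3 of the 7 members, against 10.4% of all genes tested. VAT lay wholly above spleen for 2 members (Rgs2 and Rgs14), against 6.4% of all genes, and wholly below it for 1 (Rgs10), against 4.02%.

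Rgs19, also named GAIP and the only RZ member with substantial counts, ran from 74.0 to 149 CPM in VAT (median 108) and from 123 to 164 CPM in spleen (median 146). It was lower in VAT at 6 of 6 times, with 13 of 17 VAT libraries below all spleen libraries, and its log2 fold change was -0.41 ± 0.06 (adjusted p = 2.78e-07, edgeR). At ZT20 the difference narrowed to a log2 ratio of -0.06, with 149 and 145 CPM in the VAT libraries against 144, 162 and 153 CPM in spleen.

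**Figure D2:**
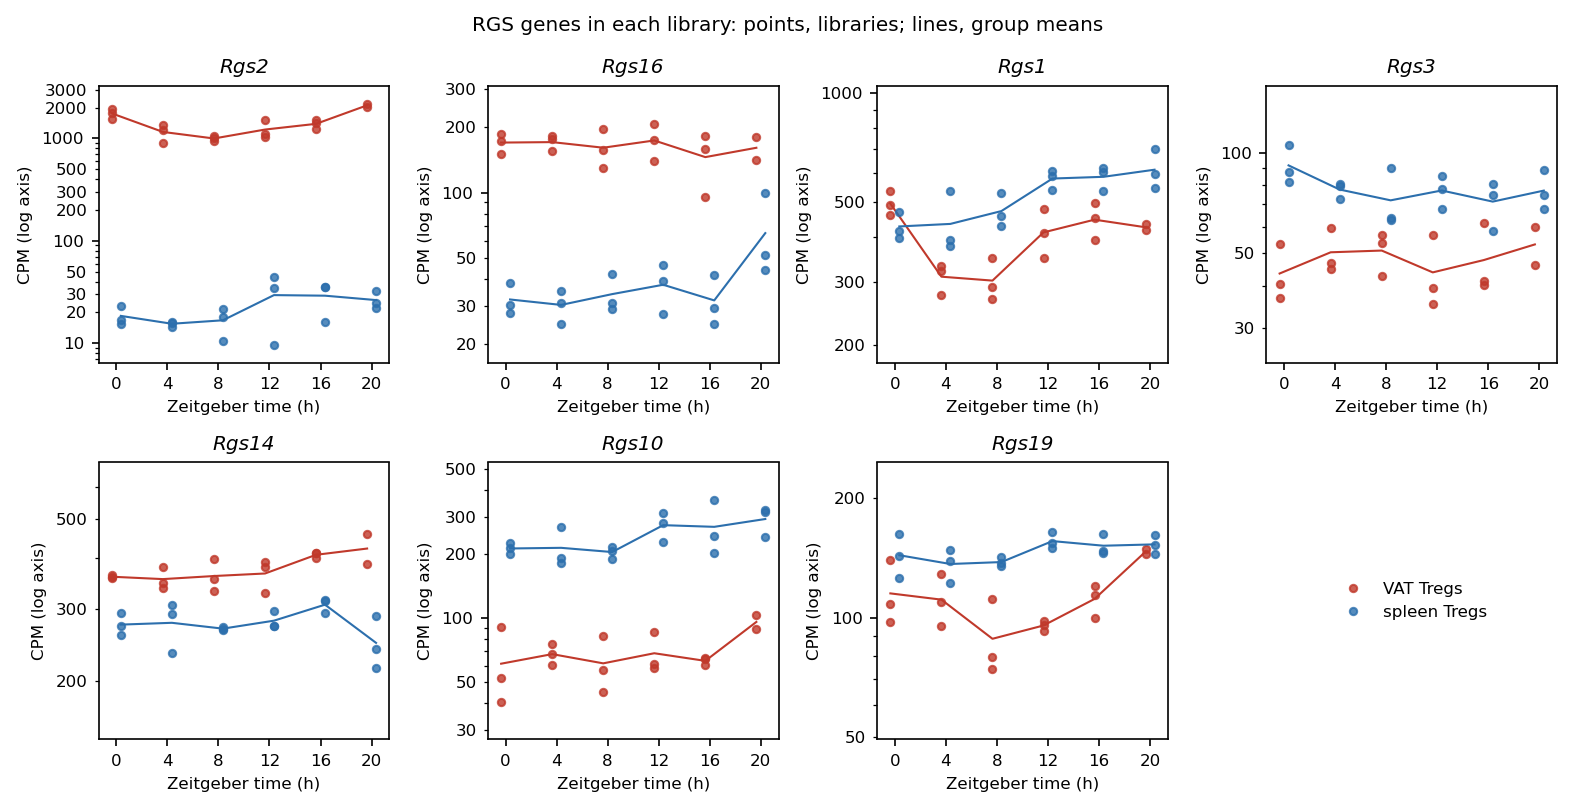
CPM of the 7 members (vertical, log axes that differ between panels) against Zeitgeber time (horizontal, h), with a point per library and lines through the group means, VAT Tregs in red and spleen Tregs in blue. The 17 VAT points lie above the 18 spleen points for Rgs2 and Rgs14 and below them for Rgs10.

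All 7 members kept their direction and their call in every alternative run. When library totals replaced the TMM factors, the median of all genes moved by -0.345, the calls over all genes became 2856 higher and 8514 lower in place of 4520 and 5376, and the small differences moved with them: Rgs14 to 0.11 (adjusted p = 0.0326), Rgs1 to -0.74, Rgs19 to -0.76 and Rgs3 to -1.03, by edgeR. The sizes for Rgs14, Rgs1, Rgs19 and Rgs3 are therefore given relative to the scaling, and their directions hold for the scalings tried.

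Several sets of other transcripts moved with the tissue. Genes that answer stimulation within minutes, and that tissue dissociation also induces, were higher in VAT in 14 of 14 cases, against 28.4% of all genes. Their summed level was 37600 to 54500 CPM in VAT and 831 to 1450 CPM in spleen. Of these Junb averaged 19210 ± 2430 and 371 ± 84.5 CPM, Dusp1 6971 ± 1135 and 89.8 ± 34.1 CPM, and Atf3 834 ± 273 and 1.02 ± 2.79 CPM (VAT n = 17, spleen n = 18, SD). Their part in the levels of Rgs2 and Rgs16 was not tested, and handling before the sort cannot be told apart from tissue. The summed B cell markers (5 of 5 detected) were lower in VAT, at 93.6 to 303 CPM against 1197 to 3084 CPM in spleen. Most of that sum was Ighm, while Ms4a1 averaged 1.14 CPM in VAT and 0.457 CPM in spleen. Macrophage or monocyte markers (5 of 5 detected) summed to 6.59 to 15.99 CPM in VAT and 19.4 to 75.5 CPM in spleen. Most of the VAT sum was Cd68, which averaged higher in VAT (7.49 and 5.62 CPM). Csf1r (0.789 and 19.0 CPM), Lyz2 (1.85 and 11.9 CPM), Adgre1 (0.328 and 5.82 CPM) and Itgam (0.0736 and 0.0898 CPM) averaged lower in VAT. Mast cell markers (3 of 3) summed to 4.94 to 25.3 CPM in VAT and 0.597 to 4.70 CPM in spleen. Most of the VAT sum was Kit, which averaged 10.65 CPM in VAT and 0.56 CPM in spleen. Cpa3 averaged 1.41 and 1.23 CPM, and Mcpt4 was lower in VAT (0.029 and 0.183 CPM). Stromal or endothelial markers (4 of 4) summed to 22.9 to 54.1 CPM in VAT and 159 to 339 CPM in spleen. Nearly all of that sum was Pecam1, which averaged 33.0 CPM in VAT and 257 CPM in spleen. Col1a1 (1.6 and 0.333 CPM) and Pdgfra (0.886 and 0.705 CPM) averaged higher in VAT, and Cdh5 lower (0.238 and 0.293 CPM). Neutrophil (4), NK cell or ILC (4) and adipocyte (3) markers stayed at or below 5.25 CPM in sum in every library, and the 2 CD8 markers ran from 1.76 to 36.8 CPM in VAT and from 6.36 to 21.2 CPM in spleen. Their part in the lower levels of Rgs1, Rgs3, Rgs10 and Rgs19 in VAT was not tested. In bulk libraries a lower level in fewer cells and less RNA per cell cannot be told apart.

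To compare members with each other, levels were divided by the length of the APPRIS principal transcript. In VAT the order was Rgs2 (464 ± 131 CPM per kb, SD, n = 17), Rgs14 (160 ± 14.5), Rgs1 (103 ± 21.5), Rgs10 (77.5 ± 19.6), Rgs19 (72.3 ± 14.2), Rgs16 (70.0 ± 11.7) and Rgs3 (12.3 ± 2.26). Rgs2, Rgs14 and Rgs3 stood apart from their neighbours in every VAT library, and the 4 genes between had overlapping ranges. In spleen the order was Rgs10 (277 ± 60.0 CPM per kb, SD, n = 18), Rgs1 (135 ± 24.2), Rgs14 (117 ± 11.6), Rgs19 (97.0 ± 7.99), Rgs3 (20 ± 2.96), Rgs16 (16.5 ± 7.32) and Rgs2 (7.48 ± 3.28). Ranges of neighbours overlapped from Rgs1 to Rgs19 and from Rgs3 to Rgs2. Rgs2 was thus first of the 7 in VAT and last in spleen. With all annotated exons of a gene as its length, Rgs2 stayed first in VAT (386 CPM per kb) and last in spleen (6.23 CPM per kb), but Rgs1 fell behind Rgs16 in VAT (57.0 and 70.0 CPM per kb).

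The second comparison asked how the members ran over the day within each tissue, by fitting a 24 h cosine curve. In VAT Rgs1, Rgs2 and Rgs19 were called, 3 of 7 members against 1.88% of all genes tested, and their fitted peaks lay between ZT19.18 and ZT21.05. In spleen only Rgs1 was called, 1 of 7 against 1.99% of all genes, with a fitted peak at ZT15.81. Amplitudes are log2 differences from peak to trough, with their SE. When library totals replaced the TMM factors, none of the 4 calls held (edgeR adjusted p 0.0735 for Rgs1, 0.0875 for Rgs2 and 0.0907 for Rgs19 in VAT, and 0.065 for Rgs1 in spleen).

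Rgs2 in VAT stood at 1956, 1785 and 1535 CPM at ZT0, at 1353, 906 and 1219 CPM at ZT4 and at 1008, 945 and 1048 CPM at ZT8. It then held 1514, 1036 and 1119 CPM at ZT12, 1403, 1248 and 1522 CPM at ZT16 and 2173 and 2047 CPM at ZT20. The 2 ZT20 libraries were the highest of the 17, and the 3 ZT8 libraries all stood at or below 1048 CPM. The amplitude was 0.97 ± 0.23 with a peak at ZT20.57 (adjusted p = 0.0484, edgeR quasi-likelihood test). The call was narrow: it held in 10 of 35 fits that left out 1 library, with adjusted p between 0.0173 and 0.169. It was lost without the ZT20 libraries (amplitude 0.85, adjusted p = 0.495). The edgeR test for any difference among the 6 times did not call Rgs2 in VAT either (adjusted p = 0.129). With VAT fitted alone Rgs2 passed (adjusted p = 0.00669, edgeR). In spleen Rgs2 averaged 18.5, 15.5, 16.7, 29.5, 29.1 and 26.3 CPM from ZT0 to ZT20. Its amplitude of 1.07 ± 0.27 and peak at ZT15.9 did not pass (adjusted p = 0.0588, edgeR), but passed without ZT12 A (0.0112) or without ZT16 A (0.0116), and by DESeq2 (adjusted p = 0.00418).

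Rgs1 in VAT stood at 534, 490 and 458 CPM at ZT0, at 332, 275 and 322 CPM at ZT4 and at 348, 289 and 268 CPM at ZT8. It held 476, 348 and 408 CPM at ZT12, 391, 495 and 451 CPM at ZT16 and 416 and 433 CPM at ZT20. Libraries of ZT4 and ZT8 were low, and all but ZT12 B of the other VAT libraries lay above all 6 of them. The highest group mean in VAT was that of ZT0 (494 CPM), while ZT20 averaged 424 CPM. The amplitude was 0.66 ± 0.14 with a peak at ZT19.18 (adjusted p = 0.0221, edgeR). The call held in 33 of 35 fits that left out 1 library, the exceptions being ZT8 C (0.0656) and ZT8 D (0.0648). With VAT fitted alone it was lost (amplitude 0.635, adjusted p = 0.101, edgeR). The edgeR test for any difference among the 6 times called Rgs1 in VAT (adjusted p = 0.00396) and in spleen (0.0272). In spleen Rgs1 held 469, 414 and 397 CPM at ZT0, 534, 377 and 390 CPM at ZT4 and 529, 428 and 455 CPM at ZT8. It held 608, 590 and 540 CPM at ZT12, 604, 619 and 534 CPM at ZT16 and 546, 698 and 596 CPM at ZT20. The 9 spleen libraries of ZT12 to ZT20 all lay above the 9 of ZT0 to ZT8, by a small margin over ZT4 B. The spleen amplitude was 0.57 ± 0.13 with a peak at ZT15.81 (adjusted p = 0.0318, edgeR), and the call held in 28 of 35 fits that left out 1 library, the highest adjusted p being 0.0953 without ZT4 C.

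Rgs19 in VAT held 108, 140 and 97.7 CPM at ZT0, 129, 109 and 94.9 CPM at ZT4 and 74.0, 112 and 79.6 CPM at ZT8. It held 96.0, 97.8 and 92.7 CPM at ZT12, 99.9, 114 and 120 CPM at ZT16 and 149 and 145 CPM at ZT20. The 2 ZT20 libraries were the highest of the 17. The amplitude was 0.57 ± 0.13 with a peak at ZT21.05 (adjusted p = 0.0297, edgeR), and the call held in 29 of 35 fits that left out 1 library. It was lost without ZT20 A (0.135), ZT20 C (0.129), ZT8 B (0.116), ZT8 D (0.0828), ZT0 B (0.0602) or ZT12 D (0.0539). It was also lost without both ZT20 libraries of VAT and those of spleen (amplitude 0.43, adjusted p = 0.504), with VAT fitted alone (0.167) and without a filter on low counts (0.0984). The call held by DESeq2 (adjusted p = 0.00685), with DESeq2 size factors in edgeR (0.0411) and for any difference among the 6 times (edgeR, 0.0388). In spleen Rgs19 averaged 137 to 156 CPM at each time, with an amplitude of 0.20 ± 0.12 (adjusted p = 0.647, edgeR).

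**Figure D3:**
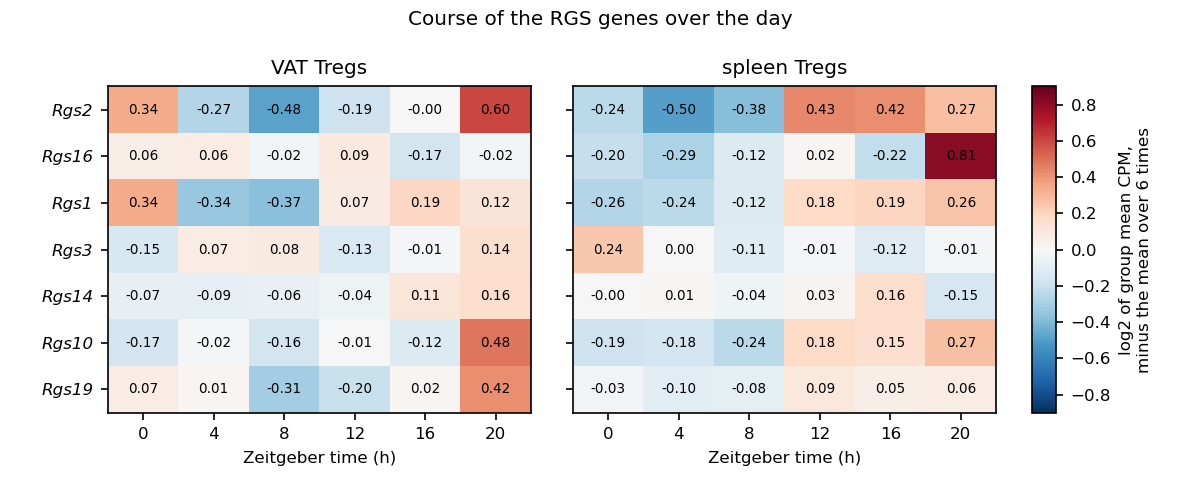
Log2 of the group mean CPM of each member minus its mean over the 6 times (colour and number), at each Zeitgeber time (horizontal, h), for VAT Tregs on the left and spleen Tregs on the right. In VAT Rgs2, Rgs3, Rgs10, Rgs14 and Rgs19 are highest at ZT20, and in spleen Rgs1, Rgs2 and Rgs10 are higher at ZT12 to ZT20 than at ZT0 to ZT8.

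The cosine fit called none of the other 4 members in either tissue. Rgs10 averaged 61.2, 67.9, 61.5, 68.6, 63.1 and 96.1 CPM in VAT from ZT0 to ZT20, with an amplitude of 0.29 ± 0.20 (adjusted p = 0.698) that was 0.115 without ZT20 C. In spleen it averaged 213, 214, 205, 273, 269 and 292 CPM, and the amplitude was 0.52 ± 0.19, peaking at ZT16.66 (adjusted p = 0.257). Rgs16 ran from a mean of 146 CPM at ZT16 to 174 CPM at ZT12 in VAT (amplitude 0.15 ± 0.25, adjusted p = 0.938). In spleen Rgs16 averaged 30.4 to 37.6 CPM at ZT0 to ZT16 and 65.0 CPM at ZT20, where the libraries held 44.1, 99.6 and 51.5 CPM. Its spleen amplitude of 0.72 ± 0.25 (adjusted p = 0.214) was 0.31 without ZT20 B, the library at 99.6 CPM. Rgs16 in spleen passed without a filter on low counts (0.0154) and in the edgeR test for any difference among the 6 times (0.0369). The run without a filter called 1446 of 47525 genes in spleen. Rgs14 had amplitudes of 0.23 ± 0.10 in VAT (adjusted p = 0.357) and 0.11 ± 0.10 in spleen (0.822), and Rgs3 of 0.05 ± 0.17 (0.985) and 0.24 ± 0.16 (0.704). These p-values come from edgeR, adjusted over all genes tested. The median amplitude of the 7 members was 0.29 in VAT and 0.52 in spleen, and that of all genes tested was 0.52 and 0.48.

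**Figure D4:**
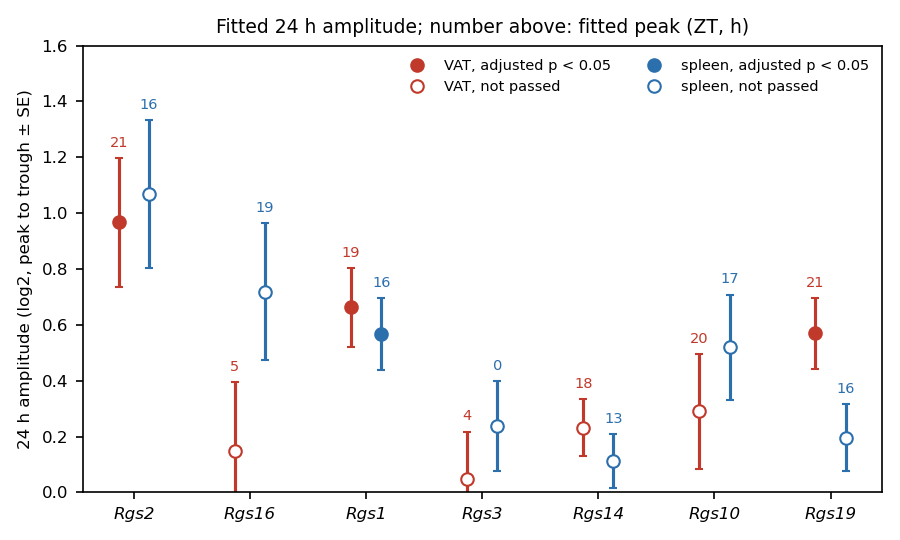
Fitted 24 h amplitude of the 7 members (vertical, log2 from peak to trough, ± SE), for VAT Tregs in red and spleen Tregs in blue, with the fitted peak in Zeitgeber hours above each point and filled points past an adjusted p of 0.05. Rgs1 is filled in both tissues, and Rgs2 and Rgs19 in VAT.

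Properties of the libraries also moved with time. For each library a slope was taken of log2 CPM, less each gene's tissue mean, on the log2 length of all its annotated exons. The slope was -0.0790 and -0.0914 in the 2 VAT libraries of ZT20, and between -0.0303 and 0.0568 in the other 15. In spleen it was -0.037, -0.046 and -0.048 at ZT20, 0.0046, -0.066 and -0.024 at ZT16, and between -0.029 and 0.058 in the other libraries. With that slope as a covariate no member was called by edgeR in either tissue. Rgs1 kept its amplitude (0.68 in VAT, adjusted p = 0.0882, and 0.58 in spleen, 0.0544), while those of Rgs2 in VAT (0.78, 0.389) and Rgs19 in VAT (0.44, 0.329) were smaller. The summed level of the 14 stimulation genes was 52800 CPM in VAT at ZT20 and 41600 to 43600 CPM at the other times. In spleen it was 1340 CPM at ZT12, 1210 CPM at ZT16 and 862 to 1070 CPM at the other times. Of the 14, Junb and Dusp1 were called in spleen, with fitted peaks at ZT15.78 and ZT14.36, and none in VAT (edgeR). Their part in the course of Rgs1, Rgs2 and Rgs19 was not tested.

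The third comparison asked whether the daily courses differed between VAT and spleen. No member was called by edgeR, against 0.00629% of all genes tested, and 3 of 7 had an unadjusted p under 0.05, against 9.09% of all genes. DESeq2 called 0 of 7, and edgeR without a filter on low counts called Rgs2 (adjusted p = 1.2e-07). That run without a filter called 1547 of 47525 genes. The size of the difference, as the log2 peak to trough of VAT minus spleen, was 1.17 ± 0.34 for Rgs2 (adjusted p = 0.362), 0.54 ± 0.17 for Rgs19 (0.424) and 0.53 ± 0.18 for Rgs1 (0.469). A call for Rgs2 or Rgs19 in VAT and not in spleen is thus not shown to be a difference between the tissues, nor is equal rhythm shown.

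The rest of the RGS family gave few counts. Of the 16 other RGS or RGS-binding genes in the table, 5 passed the filter. Rgs11, of the R7 subfamily that pairs with the beta subunit Gnb5, was higher in VAT, at 20.96 ± 7.19 CPM (SD, n = 17) against 10.2 ± 4.69 CPM in spleen (SD, n = 18), a log2 fold change of 1.04 ± 0.19 (adjusted p = 1.04e-05, edgeR). Rgs9, of the same subfamily, was lower, at 1.55 ± 1.39 against 9.03 ± 3.39 CPM (-2.67 ± 0.27, adjusted p = 3.63e-11, edgeR). Rgs12, at 9.07 ± 4.14 and 6.68 ± 2.80 CPM in VAT and spleen, Rgs7 and Rgs22 did not pass (adjusted p = 0.0928, 0.534 and 0.0672, edgeR), and the last pair averaged under 1 CPM in both tissues. None of the 5 was called rhythmic by edgeR, and none had an unadjusted p under 0.05 in either tissue.

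The other genes of G protein signalling were counted by role. Each count is to be read beside all 15910 genes tested, of which 28.4% were higher and 33.8% lower in VAT. Of 21 chemoattractant and lipid receptors tested, 12 were higher and 8 lower in VAT. The inflammatory chemokine receptor gene Ccr2 averaged 2217 ± 517 and 21.4 ± 13.2 CPM in VAT and spleen, Cxcr6 1775 ± 443 and 18.9 ± 14.4 CPM and Ccr1 515 ± 104 and 0.890 ± 1.19 CPM. Cxcr5, which guides lymphocytes to B cell follicles, averaged 3.14 ± 3.09 and 152 ± 23.8 CPM. Gpr183, an oxysterol receptor named here after its values were seen, was the 1 gene of this list called rhythmic in VAT (amplitude 0.85, peak ZT22.19, adjusted p = 0.0185, edgeR).

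Of 11 G protein alpha subunits, 7 were higher and 1 lower in VAT. Gnai3, of the Gi class, averaged 608 ± 179 and 372 ± 85.6 CPM (0.57 ± 0.10, but 0.22 and not called with library totals). Gna13, of another alpha subunit class, averaged 267 ± 39.3 and 154 ± 23.9 CPM (0.77 ± 0.06). Gnaz had the largest rise at a low level (4.95 ± 2.91 and 0.255 ± 0.412 CPM), and Gna12 fell (-0.66 ± 0.22). Of 8 beta and gamma subunits, 6 were higher and 1 lower. Gnb1 averaged 232 ± 19.99 and 111 ± 11.9 CPM (1.07 ± 0.05), Gng2 91.8 ± 15.3 and 34.9 ± 7.49 CPM (1.38 ± 0.09), Gnb4 rose most (1.78 ± 0.13) and Gng12 fell (-1.64 ± 0.17).

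Of 15 receptor kinases, arrestins and G protein modulators, 6 were higher and 2 lower in VAT. Arhgef1, whose protein has an RGS-like domain, averaged 540 ± 230 and 665 ± 283 CPM and did not pass (adjusted p = 0.0711, edgeR). Ric8a, a chaperone of alpha subunits, was called higher at 0.14 ± 0.06, and lower with library totals (-0.21). Gpsm2 rose (1.45 ± 0.35), and the receptor kinase gene Grk6 fell (-0.70 ± 0.09). Of 19 genes of the cyclic AMP pathway, 9 were higher and 5 lower. Crem, a cyclic AMP-responsive transcription factor whose short form represses, averaged 841 ± 126 and 32.5 ± 7.42 CPM (4.71 ± 0.09). Prkar1a, a regulatory subunit of protein kinase A, averaged 1096 ± 165 and 696 ± 81.9 CPM (0.62 ± 0.05), and the prostaglandin E2 receptor gene Ptger2 was lower in VAT, at 25.6 ± 8.26 against 122 ± 27.9 CPM (-2.22 ± 0.11). Apart from Gpr183, no gene of these 5 lists was called rhythmic in VAT, and none in spleen. With library totals, the receptors were split 11 higher and 8 lower, the alpha subunits 5 and 2, the beta and gamma subunits 6 and 2, the modulators 3 and 6, and the cyclic AMP genes 8 and 7. Median log2 fold changes were 1.04 for the receptors, 0.53 for the alpha subunits, 1.07 for the beta and gamma subunits, 0.14 for the modulators and 0.32 for the cyclic AMP genes, beside -0.10 for all genes.

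**Figure D5:**
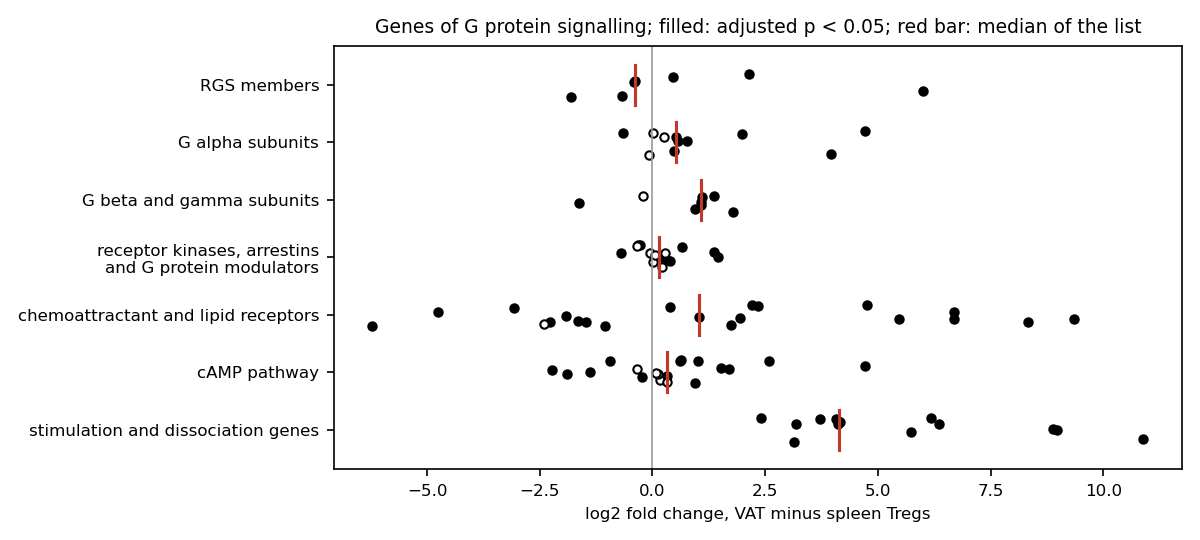
Log2 fold change of VAT minus spleen Tregs (horizontal) for each tested gene of the 7 RGS members, 5 lists of G protein signalling and the stimulation genes, with filled points past an adjusted p of 0.05 and a red bar at the list's median. The 14 stimulation genes all lie above 0, while each other list has points on both sides.

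The genes whose log2 CPM ran most like that of a member were taken from all genes tested, as a description over the 35 libraries, which share depth and 2 tissues. For Rgs2 they were Junb and Gm2a (Pearson r = 0.99 each), and after the mean of each tissue was taken off, Sec61a1 (0.77) and Timm8b (0.75), with Junb at 0.66. For Rgs10 they were Izumo1r and Limd2 (0.97 each), and Utp11 (0.82) and Naca (0.81) within tissues. For Rgs19, Cdk4 was first on both measures (0.91 and 0.82), followed by Gpr183 (0.88) over all libraries and by Rai1 (0.80) within tissues. For Rgs16 they were Acsbg1 (0.96, and 0.64 within tissues) and Id2 (0.96), and Tigit within tissues (0.69). For Rgs1, Lat was first on both measures (0.79 and 0.67), with Cct4 (0.79) and, within tissues, Wdr46 (0.67). For Rgs14, Irf5 was first on both (0.91 and 0.62), with Ywhae (0.91) and Gm13351 (0.59). For Rgs3 they were Ifi214 and Irf9 (0.88 each), and Krcc1 (0.59) and Rnf25 (0.58) within tissues.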

How the data were processed

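Per the labels' protocols, RNA of 1000 sorted cells was primed with oligo-dT, amplified, made into Nextera XT libraries and sequenced from both ends at 25 nt. The authors deposited raw read counts per gene symbol. The submitters' processing notes name STAR 2.7.3a, featureCounts and mm10. The annotation, the strand setting and the treatment of multiply mapping reads were not given in the sources used here. No molecular identifiers are named, so counts include amplified copies.

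Libraries held 2178238 to 6260185 counts in VAT and 2069319 to 5328695 in spleen. In 34 comparisons of libraries from the same group, none agreed within sampling noise (chi-square per gene 4.3 to 22.6). Tests were run with edgeR 4.0.16 in R 4.3.3 (filterByExpr over the 12 groups, TMM, robust quasi-likelihood fits, Benjamini-Hochberg adjustment over 15910 genes, threshold 0.05). VAT against spleen was the mean of 6 VAT groups minus that of 6 spleen groups. Rhythm was 1 model of tissue with a cosine and sine of 24 h in each, and SDs are over libraries. Correlations used log2 CPM with a prior count of 2. Alternatives were library totals, DESeq2 1.42.0 and its size factors, no filter, leaving out libraries or ZT20, and the label letter as a block. Further alternatives were the slope on exon length as a covariate, tissues alone and any difference among times. Named genes were all members, every other RGS gene that passed, and of each list the 2 highest in level and the largest rise and fall among those called. The members, lists and rules were chosen with earlier results of these data known.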

Additional observations from a re-analysis of the deposited data

How the results depend on the processing

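Between VAT and spleen, the 7 members were called with the same sign in each of the 8 alternatives and in each of the 35 fits that left out 1 library, and the count of genes called, 9896, stayed between 9142 and 11370 (9685 to 9864 when 1 library was left out). Calls of rhythm moved. In VAT 299 genes and 3 members were called. The counts were 196 genes and 0 members with library totals, 675 genes with DESeq2, 1572 without a filter, 17 genes and 1 member without ZT20, 27 genes and 0 members with the length slope, 42 genes and 1 member in VAT fitted alone, and 813 genes for any difference among times. Leaving out 1 library gave 54 to 1008 genes and 0 to 3 members. In spleen 316 genes and 1 member were called. The counts were 0 members with library totals, 854 genes and 2 members with DESeq2, 1446 genes and 3 members without a filter, 104 genes and 0 members with the length slope, 584 genes in spleen fitted alone and 2 members for any difference among times. Leaving out 1 library gave 98 to 569 genes and 0 to 2 members. For the difference in rhythm, 1 gene was called. The count was 0 with library totals and with DESeq2 size factors, 22 with DESeq2, 1547 genes and 1 member (Rgs2) without a filter, 24 without ZT20 and 3 with the length slope, and 0 to 11 when 1 library was left out. The causes were not tested. Amplitudes of Rgs1 stayed between 0.56 and 0.84 in VAT and between 0.51 and 0.58 in spleen in the alternatives other than leaving out 1 library.

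VAT and spleen libraries of the same time and letter did not deviate together (17 pairs, r -0.112 to 0.057, and 4 of 17 VAT libraries correlated best with their own letter), so the letters were not taken as pairs. With the replicate block of letters, VAT had 124 rhythmic genes and 1 member, spleen 171 genes and 0 members, and the difference 0 genes. Among the members it ended the edgeR calls of Rgs2 (adjusted p = 0.0589) and Rgs19 (0.0658) in VAT and of Rgs1 in spleen (0.0543). With pairs of 1 VAT and 1 spleen library as the replicate block, 9270 genes and 7 members differed between tissues. Spleen values of Rgs2, at 29 to 142 counts per library, have the widest counting error among the members.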

Other observations

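The RGS genes that did not pass the filter on low counts include transcripts known from other cells. Rgs5, a gene of pericytes, had 28 counts over the 17 VAT libraries and 9 over the 18 spleen libraries. Rgs18, of platelets and myeloid cells, had 38 and 21, and Rgs13, of germinal centre B cells and mast cells, 10 and 7. Rgs4 had 6 and 9 counts, Rgs8 14 and 30, and Rgs17 and Rgs20, the other RZ genes, 38 and 20 and 18 and 9. Rgs6 had 34 and 44, Rgs7bp 12 and 23, and Rgs9bp 56 and 32. Rgs21, next to Rgs1 on chromosome 1, had 6 and 17. These are counts over whole groups and include amplified copies.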
